A study of Homo sapiens with 12 samples.

Results

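The MYC, MAX and MXD network was followed as 9 genes, taken by gene name from the deposited table of TPM values (transcript abundance per length, scaled to the library total). They were MYC, MAX, MXD1, MXD3, MXD4, MXI1, MNT, MLX and MGA, out of 61541 genes with an Ensembl identifier. All 9 passed the filter of at least 1 TPM in at least 3 libraries. RNA came from K562 cells, an established line from 1 chronic myeloid leukemia that carries the BCR::ABL1 fusion kinase. After 12 h, control cells that had neither drug were compared with cells given MLN4924 (25 µM), an inhibitor of the E1 enzyme that activates NEDD8, cells given imatinib (0.5 µM), a tyrosine kinase inhibitor (TKI) of ABL1, and cells given both, here called imatinib + MLN4924 or the combination. Each of the 4 groups had 3 libraries, 12 altogether. The control's vehicle is not stated in the sources used here, and nothing says that the libraries of a group were separate cultures, so p-values measure only the spread between these libraries, which may be technical.

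MYC is a transcription factor of the basic helix-loop-helix leucine zipper (bHLH-zip) class that binds DNA as a dimer with MAX, at E-boxes with the core CACGTG, and drives genes of ribosome making, nucleotide synthesis and growth. The MXD proteins, MXI1 and MNT also pair with MAX, bind E-boxes and bring in SIN3 and histone deacetylases, so they counter MYC, and some of them are known for rising as cells stop dividing and mature. MLX pairs with the sugar-sensing factors MondoA and ChREBP and with some of the antagonists, and MGA pairs with MAX inside a Polycomb complex. In CML cells BCR::ABL1 signalling is known to keep MYC transcription high.

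The table gave no read numbers, so the sequencing depth is not known and counting intervals cannot be set. Replicate 3 of the imatinib group and replicate 3 of the imatinib + MLN4924 group lay nearer to control than the other libraries of their groups for MYC, MAX, MXD3 and MXD4. Values without them are given below for MYC, MXD3 and MXD4, and elsewhere where a call changed. All 10 K562 identity markers were present (GATA1 ranged from 127 to 206 TPM), with a summed level of 13682 to 14261 TPM in control, 12909 to 14840 under MLN4924, 30733 to 40457 under imatinib and 14590 to 20240 with imatinib + MLN4924. Most of this sum was HBG1 (4314 to 12736 TPM) and HBG2 (7943 to 25921 TPM). Of the 10 markers, 7 rose with imatinib, beside 26.3% of all genes, and 4 fell with MLN4924 alone, beside 7.11%. When MLN4924 was added to imatinib 6 of the markers fell, beside 20.5% of all genes. Their part in the results on the network was not tested. Of 9 markers of other cells, MS4A1, KRT5 and CDH5 were listed at 0 in every library, and the 9 together reached at most 3.02 TPM in any library. Genes of the mitochondrial chromosome took 12.8 to 13.6% of the TPM in control, 12.7 to 13.8% under MLN4924, 17.4 to 18.2% under imatinib and 14.9 to 15.7% with imatinib + MLN4924.

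With imatinib alone, the activating arm of the network fell and most of its antagonists rose. MYC fell from 302 ± 9.3 to 98.1 ± 30.5 TPM (mean ± SD, n = 3 libraries, as for all means below), while MXD3 rose from 9.24 ± 2.22 to 50.2 ± 9.78 TPM and MXD4 from 6.06 ± 0.707 to 23.8 ± 4.99 TPM. Groups were compared with limma on log2(TPM + 1), a scale that understates the change of low genes, with Benjamini-Hochberg adjustment over 15478 genes, and all differences below are on this log2 scale. In imatinib against control 4 of the 9 rose (MXD1, MXD3, MXD4 and MXI1) and 4 fell (MYC, MAX, MLX and MGA), beside 26.3% of all genes called higher and 27.5% called lower. MNT, the remaining gene, did not pass, with an interval of -0.29 to 0.35 around a difference of 0.03 on the log2 scale. The median difference of the 9 was 0.03, beside 0.02 for all genes tested. In bulk RNA, fewer cells with a transcript and less RNA per cell cannot be told apart.

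**Figure D1:**
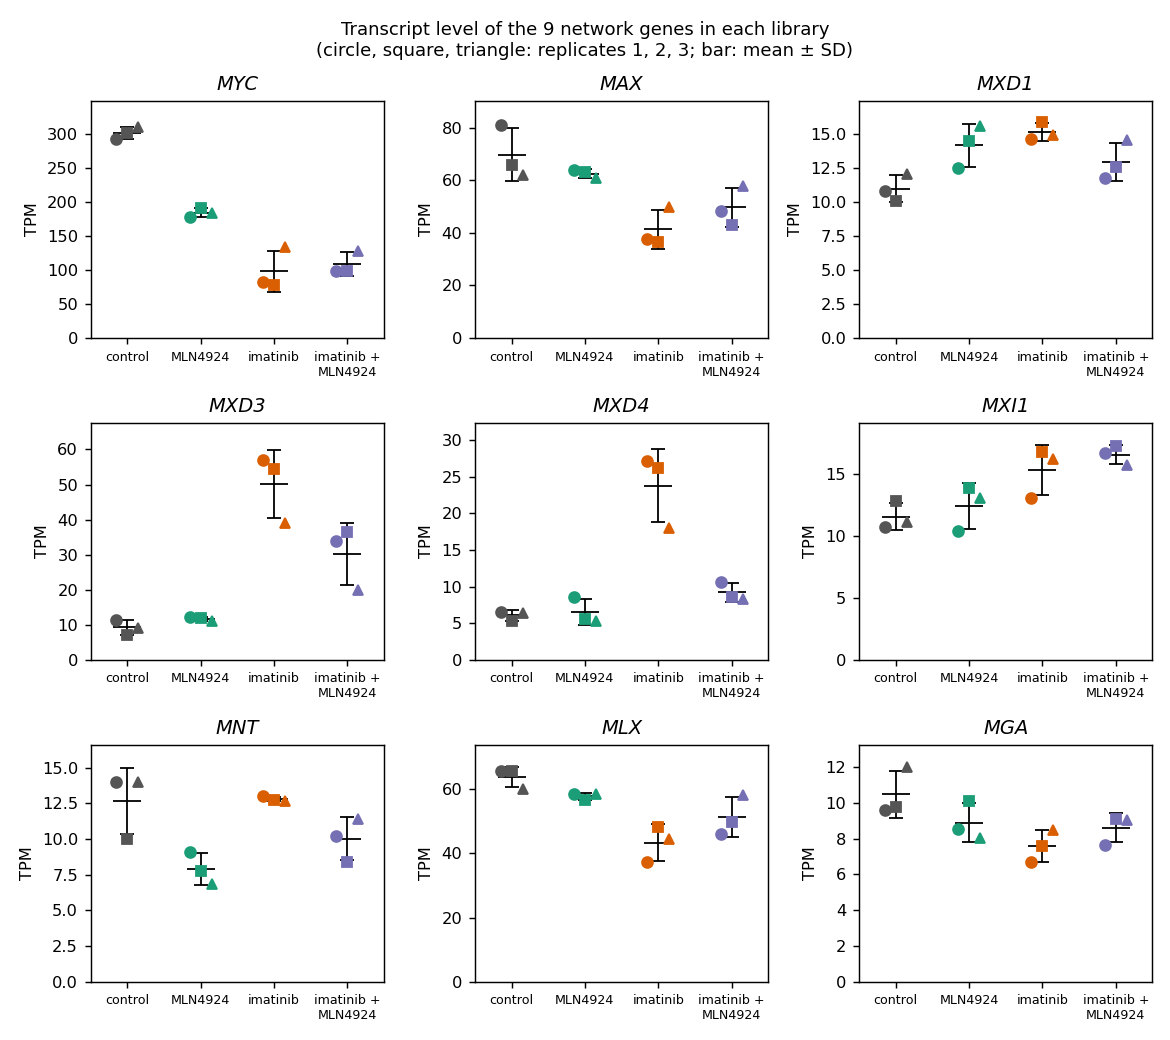
Level of each network gene in TPM (vertical axis, from 0) in the 4 groups, with 1 point per library (circle, square and triangle for replicates 1, 2 and 3) and bars for the mean ± SD. MYC drops from about 302 TPM in control to 98.1 with imatinib, while MXD3 and MXD4 stand highest in the imatinib libraries.

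With MLN4924 alone 2 of the 9 genes passed the threshold. MYC fell to 184 ± 6.59 TPM and MNT fell from 12.7 ± 2.32 to 7.9 ± 1.11 TPM, and none of the 9 rose, beside 7.36% of all genes called higher and 7.11% called lower. With imatinib + MLN4924 against control, MXD3 and MXI1 rose and MYC, MAX and MLX fell, beside 12.2% higher and 13.9% lower of all genes. Set against imatinib alone, the combination lowered MXD3 and MXD4 and none of the 9 rose, beside 22.6% higher and 20.5% lower. Set against MLN4924 alone, MXD3 rose and MYC fell, beside 7.73% higher and 8.48% lower. The difference between the effect of imatinib with MLN4924 and its effect without (the interaction) passed for MYC in the positive direction and for MXD1, MXD3 and MXD4 in the negative direction, beside 9.06% positive and 7.35% negative of all genes. Comparisons that share a group are not independent of each other.

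**Figure D2:**
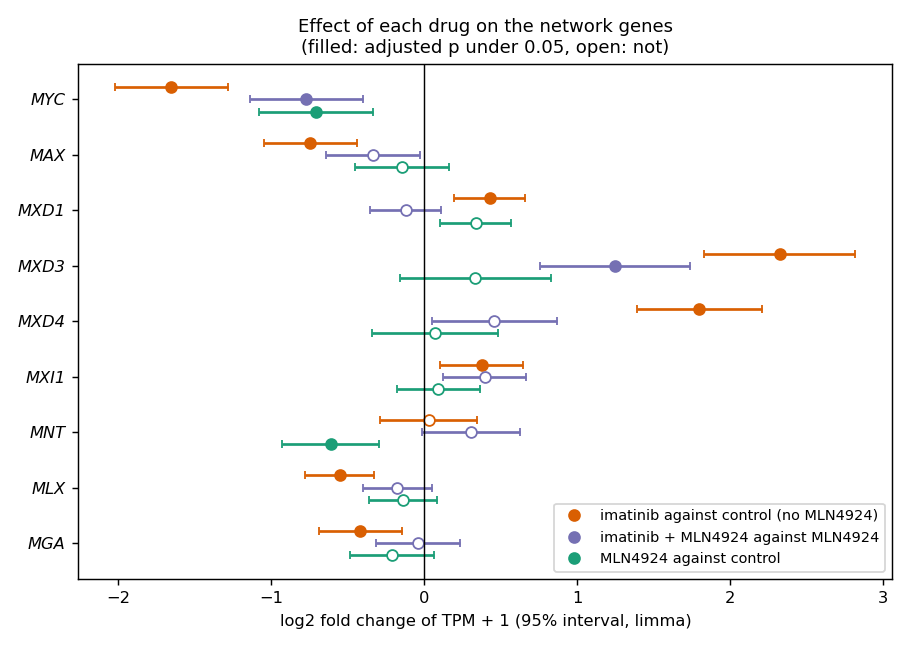
Differences on the log2(TPM + 1) scale (horizontal axis) with 95% intervals from limma for the 9 genes, for imatinib against control, imatinib + MLN4924 against MLN4924 and MLN4924 against control, filled where the adjusted p passed 0.05. The effect of imatinib on MXD4 shrinks from 1.80 without MLN4924 to 0.46 with it, and that on MYC from -1.65 to -0.77.

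MYC (ENSG00000136997), the activator of the network, was its most abundant transcript in every group. Control libraries held 292, 302 and 311 TPM, MLN4924 libraries 178, 191 and 184 TPM, imatinib libraries 82.3, 78.6 and 133 TPM, and libraries with both drugs 98.3, 98.7 and 129 TPM. The control libraries lay above all others, the MLN4924 libraries came next with no overlap, and those with both drugs lay inside the range of imatinib alone. MYC fell by 1.65 on the log2 scale with imatinib (SE 0.169, adjusted p = 1.75e-05) and by 0.71 with MLN4924 (SE 0.169, adjusted p = 0.0168). With MLN4924 present, imatinib lowered it by a further 0.77 (SE 0.169, adjusted p = 0.0128), and the interaction was 0.88 (SE 0.239, adjusted p = 0.0309). The combination differed from imatinib alone by 0.18 (interval -0.20 to 0.55, adjusted p = 0.428). Without replicate 3 of imatinib, MYC was higher in the combination than with imatinib alone by 0.42 (adjusted p = 0.00743), and without replicate 3 of all 4 groups by 0.29 (adjusted p = 0.00538). Without imatinib replicate 3 the difference with imatinib was -1.89 (adjusted p = 4.08e-07) and the interaction 1.12 (adjusted p = 0.000389), and without replicate 3 of the combination the interaction was 0.76. The interaction was past the threshold with all libraries, but not without any 1 control or MLN4924 library, replicate 1 or 2 of imatinib or replicate 3 of the combination (adjusted p from 0.0521 to 0.0777). The fall with MLN4924 did not pass without control replicate 2, MLN4924 replicate 1 or MLN4924 replicate 3 (adjusted p from 0.0502 to 0.0508). The fall from MLN4924 to the combination did not pass without replicate 1 or 2 of the combination (0.0562 and 0.0551). Without imatinib replicate 3 both falls passed (adjusted p 0.000712 and 0.000654). The fit pools the spread of the 4 groups. The SD of MYC on the log2 scale was 0.0443 in control, 0.0513 under MLN4924, 0.418 under imatinib and 0.22 with both drugs.

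MAX (ENSG00000125952), the obligate partner of MYC and a partner of its antagonists, was the second most abundant on average in control, close to MLX. Its levels were 81.2, 66.0 and 62.2 TPM in control, 63.9, 63.1 and 60.8 TPM with MLN4924, 37.6, 36.5 and 49.98 TPM with imatinib and 48.2, 43.2 and 57.9 TPM with both drugs. Each imatinib library lay below each control library, while MLN4924 libraries overlapped control. MAX fell by 0.75 with imatinib (SE 0.139, adjusted p = 0.000885) and by 0.48 with the combination against control (adjusted p = 0.0261), the latter not without control replicate 1 or replicate 1 or 2 of the combination (adjusted p from 0.0745 to 0.1). The combination stood 0.27 above imatinib (adjusted p = 0.146), a difference that passed without replicate 3 of imatinib (0.41, adjusted p = 0.0243). Its interaction, 0.41 with all libraries (adjusted p = 0.169), passed without that same library (0.55, adjusted p = 0.0377). Imatinib on top of MLN4924 gave -0.33 (adjusted p = 0.124), and -0.45 without replicate 3 of the combination (adjusted p = 0.0489).

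MXD3 (ENSG00000213347), an antagonist known mainly from cycling cells, had the largest difference of the 9 in imatinib against control. Control libraries held 11.5, 7.05 and 9.19 TPM and MLN4924 libraries 12.2, 11.9 and 11.1 TPM, against 57.1, 54.5 and 39.0 TPM with imatinib and 34.0, 36.6 and 19.9 TPM with both drugs. The imatinib libraries were the highest, those with both drugs lay between, and neither range overlapped another group's. The rise with imatinib was 2.33 on the log2 scale (SE 0.225, adjusted p = 1.28e-05), and the rise from MLN4924 to the combination was 1.25 (SE 0.225, adjusted p = 0.00548). From imatinib to the combination MXD3 fell by 0.74 (SE 0.225, adjusted p = 0.0204), and the interaction was -1.08 (SE 0.319, adjusted p = 0.0416). The fall did not pass without replicate 1 or 2 of imatinib or replicate 3 of the combination (adjusted p 0.0762, 0.0704 and 0.0732), and the interaction did not pass without control replicate 2 or 3, any 1 MLN4924 library, replicate 1 or 2 of imatinib or replicate 3 of the combination (adjusted p from 0.064 to 0.0995), nor under limma without trend (0.0564). Without imatinib replicate 3 the rise with imatinib was 2.49, the fall to the combination was -0.91 and the interaction -1.25 (adjusted p 1.04e-05, 0.00965 and 0.016), and without replicate 3 of the combination the fall was -0.48 and the interaction -0.81.

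MXD4 (ENSG00000123933), an antagonist linked to cells that leave the cycle, rose with imatinib, by less when MLN4924 was also present. It stood at 6.55, 5.25 and 6.38 TPM in control, 8.56, 5.62 and 5.37 TPM with MLN4924, 27.1, 26.2 and 18.1 TPM with imatinib and 10.7, 8.63 and 8.27 TPM with both drugs. Imatinib alone lay well apart from the other 3 groups, and the combination overlapped MLN4924. The rise with imatinib was 1.80 (SE 0.187, adjusted p = 1.93e-05), and from imatinib to the combination MXD4 fell by 1.27 (SE 0.187, adjusted p = 0.00038). The interaction was -1.34 (SE 0.264, adjusted p = 0.0103) and passed with each of the 12 libraries left out in turn, at -1.52 without imatinib replicate 3 (adjusted p = 0.00145) and -1.27 without replicate 3 of the combination (adjusted p = 0.0252). Without imatinib replicate 3 the rise with imatinib was 1.98 and the fall to the combination -1.45 (adjusted p 7.71e-06 and 0.000117). The combination exceeded control by 0.53 (SE 0.187, adjusted p = 0.0575), which passed without MLN4924 replicate 1 or imatinib replicate 3 (adjusted p 0.0331 and 0.0297). With only the libraries compared that difference also passed (adjusted p = 0.0275). Of 23 refits with other settings or libraries, 7 passed and 16 did not. The combination exceeded MLN4924 by 0.46 (adjusted p = 0.117), which passed without MLN4924 replicate 1 (0.64, adjusted p = 0.0475).

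The promoters of these antagonists, the pair that rose most, are shown because they differ in the E-box to which MYC and MAX bind. Each is the 300 bases from 250 before to 50 after the RefSeq start site on GRCh38.p14, read 5′ to 3′ on the gene's strand, with CACGTG in capitals. MXD4 held 1 CACGTG in its window, chr4:2262060-2262359 on the minus strand, starting 238 bases before the start site. MXD3 held no CACGTG in its window, chr5:177312703-177313002 on the minus strand. Both windows held the looser motif CANNTG 2 times, with the CACGTG of MXD4 counted. CACGTG, its own reverse complement and always also a CANNTG, was in 7.26% of 35116 RefSeq windows of the same length, and CANNTG in 68.7%. A match describes these letters and is not a binding site.
MXD3: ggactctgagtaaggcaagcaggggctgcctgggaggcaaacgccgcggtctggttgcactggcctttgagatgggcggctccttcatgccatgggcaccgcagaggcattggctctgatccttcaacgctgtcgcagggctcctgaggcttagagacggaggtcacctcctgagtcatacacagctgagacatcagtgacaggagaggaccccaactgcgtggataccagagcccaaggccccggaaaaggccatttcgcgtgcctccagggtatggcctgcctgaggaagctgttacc
MXD4: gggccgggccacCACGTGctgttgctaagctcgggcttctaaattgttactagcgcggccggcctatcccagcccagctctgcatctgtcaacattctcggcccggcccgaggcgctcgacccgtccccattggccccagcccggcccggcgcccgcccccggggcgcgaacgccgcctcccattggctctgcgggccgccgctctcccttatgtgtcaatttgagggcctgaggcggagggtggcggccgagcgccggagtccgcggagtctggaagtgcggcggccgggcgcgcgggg

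MXD1 (ENSG00000059728), the antagonist classically induced as myeloid cells mature, changed by less. Control libraries held 10.8, 10.1 and 12.0 TPM, MLN4924 libraries 12.4, 14.4 and 15.6 TPM, imatinib libraries 14.6, 15.8 and 14.9 TPM, and libraries with both drugs 11.8, 12.5 and 14.5 TPM. Each drug alone lay above control in every library, and the combination overlapped control. The rise with imatinib was 0.43 (SE 0.106, adjusted p = 0.005), and MLN4924 gave 0.34 (SE 0.106, adjusted p = 0.054), which passed without control replicate 3, MLN4924 replicate 1 or replicate 3 of the combination (adjusted p from 0.0334 to 0.0493). The interaction was -0.55 (SE 0.15, adjusted p = 0.0314), and did not pass without control replicate 1 or 2, MLN4924 replicate 2 or 3, imatinib replicate 1 or 2, or replicate 1 or 2 of the combination (adjusted p from 0.0574 to 0.0796).

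MXI1 (ENSG00000119950), an antagonist known also as a target of FOXO and of hypoxia-inducible factors, had its highest mean with both drugs. It was measured at 10.7, 12.8 and 11.1 TPM in control, 10.4, 13.9 and 13.1 TPM with MLN4924, 13.0, 16.8 and 16.2 TPM with imatinib and 16.7, 17.3 and 15.7 TPM with both drugs. The libraries with imatinib lay above control with or without MLN4924, and MLN4924 alone overlapped control. The rise was 0.38 with imatinib (SE 0.123, adjusted p = 0.0227) and 0.49 with the combination against control (adjusted p = 0.014), and the interaction was 0.02 (adjusted p = 0.956). The first did not pass without control replicate 1 or 3 or imatinib replicate 2 or 3 (adjusted p from 0.0631 to 0.0878) or with no filter on low values (0.0966), nor the second without control replicate 1 or replicate 2 of the combination (adjusted p = 0.0504 for each). From MLN4924 to the combination the difference was 0.39 (adjusted p = 0.0503), which passed without imatinib replicate 1 or 3 (0.0384 and 0.0464). It also passed with genes of the mitochondrial chromosome left out (0.0416) or the 10 most abundant genes left out (0.0394). Of 23 refits with other settings or libraries, 8 passed and 15 did not.

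MNT (ENSG00000070444), the broadly expressed antagonist, was the 1 antagonist called lower with MLN4924 alone. Control libraries held 14.0, 10 and 14.0 TPM, MLN4924 libraries 9.07, 7.78 and 6.85 TPM, imatinib libraries 13.0, 12.8 and 12.7 TPM and libraries with both drugs 10.2, 8.43 and 11.4 TPM. Those with MLN4924 alone lay below every control library, and imatinib alone stayed inside the control range. MNT fell by 0.61 with MLN4924 (SE 0.145, adjusted p = 0.0161), but not past the threshold without control replicate 1 or 3 or MLN4924 replicate 2 or 3 (adjusted p from 0.0527 to 0.0672). Without control replicate 2, the combination was called lower than control (-0.46, adjusted p = 0.0401) and than imatinib (-0.33, adjusted p = 0.0467), where all libraries gave -0.31 (adjusted p = 0.146) and -0.33 (adjusted p = 0.0831).

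MLX (ENSG00000108788), the partner of MondoA and ChREBP, followed the direction of MAX. Its levels were 65.6, 65.5 and 60.1 TPM in control, 58.3, 56.6 and 58.4 TPM with MLN4924, 37.1, 48.2 and 44.6 TPM with imatinib and 46.0, 49.8 and 58.1 TPM with both drugs. All treated libraries lay below all controls, and imatinib with and without MLN4924 overlapped. MLX fell by 0.55 with imatinib (SE 0.102, adjusted p = 0.000835). The fall of 0.31 with the combination against control (adjusted p = 0.0431) did not pass without any 1 control or MLN4924 library or replicate 1 or 2 of the combination (adjusted p from 0.0542 to 0.157), nor with genes of the mitochondrial chromosome left out (adjusted p = 0.0655) or under limma without trend (0.0632). The combination exceeded imatinib by 0.24 (adjusted p = 0.0786), which passed without imatinib replicate 2 or replicate 1 of the combination (0.0418 and 0.0429).

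MGA (ENSG00000174197), a large MAX partner that joins a repressive Polycomb complex, changed least of the 4 that fell with imatinib. Its levels were 9.63, 9.78 and 12.0 TPM in control, 8.53, 10.1 and 8.05 TPM with MLN4924, 6.68, 7.57 and 8.51 TPM with imatinib and 7.67, 9.08 and 9.07 TPM with both drugs. Imatinib libraries lay below all controls, and MLN4924 libraries overlapped control. MGA fell by 0.42 with imatinib (SE 0.125, adjusted p = 0.0144), not past the threshold without control replicate 3 or imatinib replicate 1 (adjusted p 0.0607 and 0.0619) or with no filter on low values (0.0555), and no other comparison called it.

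The order of the levels within a group, in TPM and so per length, shifted with imatinib. In control MYC was followed by MAX and MLX (69.8 ± 10.1 and 63.7 ± 3.17 TPM), whose libraries overlapped. MNT, MXI1, MXD1, MGA and MXD3 came next with means of 12.7, 11.6, 11.0, 10.5 and 9.24 TPM, each overlapping the next, and MXD4 was lowest, with its highest library (6.55 TPM) below the lowest of MXD3 (7.05 TPM). With imatinib MXD3 came second after MYC, at 50.2 TPM, overlapping MLX (43.3 ± 5.65 TPM) and MAX (41.3 ± 7.5 TPM). MXD4 followed at 23.8 TPM, above every library of MXI1, MXD1 and MNT, and MGA was lowest at 7.59 ± 0.915 TPM.

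MYC was set against the summed level of its antagonists MXD1, MXD3, MXD4, MXI1 and MNT inside each library, as a description with no test, since the sum was made from several members. The antagonists together reached 53.6, 45.2 and 52.7 TPM in control, 52.7, 53.6 and 51.9 TPM with MLN4924, 125, 126 and 101 TPM with imatinib and 83.4, 83.4 and 69.9 TPM with both drugs. MYC transcripts per antagonist transcript were 5.45, 6.67 and 5.91 in control and 3.38, 3.57 and 3.55 with MLN4924, against 0.659, 0.623 and 1.32 with imatinib and 1.18, 1.18 and 1.84 with both drugs. Antagonist transcripts outnumbered MYC in replicates 1 and 2 of imatinib and in no other library. The mean log2 ratio fell by 2.88 from control to imatinib and by 0.78 from control to MLN4924, and it was 0.75 higher in the combination than with imatinib. MXD3 and MXD4 made up 30.1 ± 3.25% of the antagonist sum in control, 34.6 ± 4.24% under MLN4924, 62.7 ± 5.55% under imatinib and 49.4 ± 7.81% with both drugs.

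**Figure D3:**
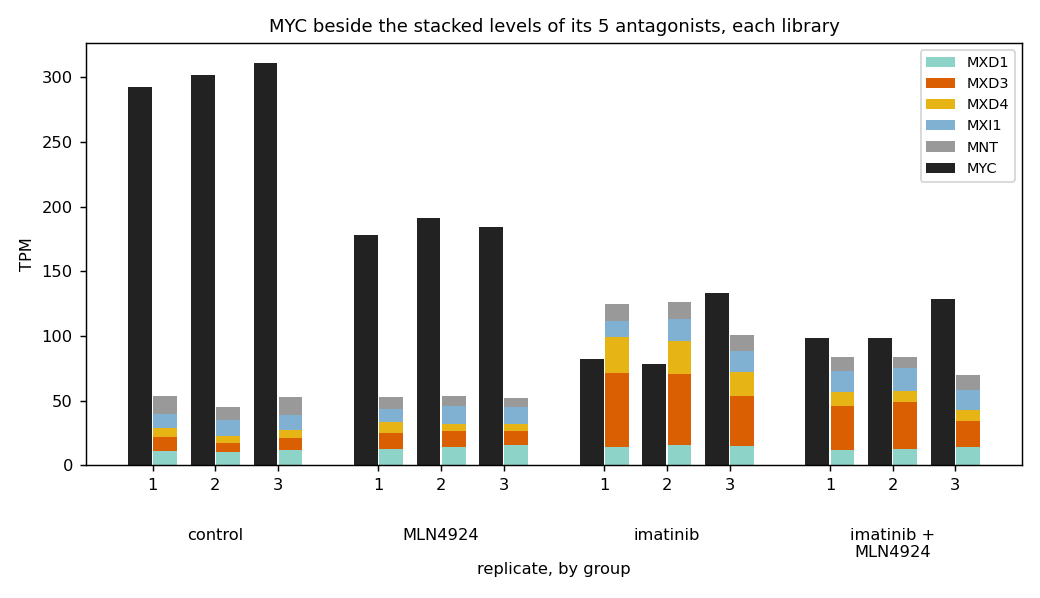
MYC (black bars) beside the stacked levels of MXD1, MXD3, MXD4, MXI1 and MNT in TPM (vertical axis) for the 3 libraries of each group. The stack exceeds the MYC bar in imatinib replicates 1 and 2, at 125 and 126 TPM against 82.3 and 78.6 TPM.

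Relative to MAX, the partner they share, MYC stood at 4.39 ± 0.719 transcripts per MAX transcript in control, 2.95 ± 0.141 under MLN4924, 2.34 ± 0.286 under imatinib and 2.18 ± 0.127 with both drugs. MYC, the 5 antagonists and MGA together stood at 5.28 ± 0.841 per MAX in control and 5.46 ± 0.524 with imatinib, with overlapping libraries. With MLN4924 and with both drugs the same sum was 3.93 ± 0.165 and 3.98 ± 0.426 per MAX. Protein levels and dimers were not measured here.

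Genes known to be induced by MYC fell broadly with imatinib. Of 40 such genes 38 fell and 1 rose, where 27.5% and 26.3% of all genes did, with a median of -1.56 on the log2 scale. ODC1, the first enzyme of polyamine synthesis, fell from 289 ± 5.07 to 97.2 ± 24.5 TPM, NCL, a nucleolar protein of ribosome making, from 797 ± 20.9 to 282 ± 83.7 TPM, and NPM1, a nucleolar chaperone, from 2328 ± 89.8 to 1213 ± 86.2 TPM. SRM, which makes spermidine, fell by 2.50 (SE 0.238, adjusted p = 1.17e-05), the largest fall on the list. TFRC, the transferrin receptor and also a K562 identity marker, rose by 0.84 (adjusted p = 4.81e-06). CDK4, a cell cycle kinase, gave -0.02 (adjusted p = 0.868).

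MLN4924 alone lowered 4 of the 40 (TERT, CCND2, CDK4 and TFRC), near the 7.11% of all genes, with a median of -0.13. Added to imatinib it raised 35 and lowered 2 against imatinib alone, where 22.6% and 20.5% of all genes did, with a median of 0.75. The combination stayed below control for 32, beside 13.9% of all genes, with a median of -0.62. LDHA, which makes lactate, had the largest rise from imatinib to the combination, from 273 ± 113 to 719 ± 30.4 TPM (1.47, SE 0.196, adjusted p = 0.000211), while MYC itself gave 0.18 in that comparison. ODC1 rose by 0.44 (adjusted p = 0.0499), SRM by 1.24 (adjusted p = 0.00185) and NPM1 by 0.50 (adjusted p = 8.28e-05). The interaction was positive past the threshold for 31 of the 40, beside 9.06% of all genes, and negative for TFRC. The median of all genes was between -0.01 and 0.02 in all 6 comparisons. The count of 4 lowered by MLN4924 alone was 13 with only the libraries compared and 10 without imatinib replicate 3, but 2 without control replicate 1, control replicate 3 or MLN4924 replicate 2 and 1 without MLN4924 replicate 3. Against control the combination lowered 21 without its replicate 1 and 18 without its replicate 2, and the positive interactions numbered 18 without imatinib replicate 2 and 37 without imatinib replicate 3 (median 1.17, against 0.96 with all libraries). With no filter on low values 15 stayed lower than control in the combination and 4 interactions were positive.

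Genes known to be repressed by MYC moved in both directions. Of 17, 13 passed the filter, and with imatinib 6 rose and 3 fell, beside 26.3% and 27.5% of all genes, with a median of 0.21. The median was 0.53 without control replicate 3, and 1 fell in place of 3 without control replicate 1 or with genes of the mitochondrial chromosome left out. Among the cyclin-dependent kinase inhibitors, CDKN1C rose from 13.5 ± 1.53 to 73.8 ± 21.9 TPM (2.33, adjusted p = 6.38e-06) and CDKN1B from 23.4 ± 2.37 to 39.6 ± 2.18 TPM (0.74, adjusted p = 7.21e-05), while CDKN1A gave -0.38 (adjusted p = 0.117). MLN4924 alone raised 4 and lowered 2, beside 7.36% and 7.11% of all genes. CDKN1A rose from 9.87 ± 0.433 to 25.9 ± 0.498 TPM (1.31, adjusted p = 0.00132) and CLU, a secreted chaperone, from 2.14 ± 1.92 to 16.01 ± 3.23 TPM (2.59, adjusted p = 0.00188), while CDKN1C fell by 1.12 (adjusted p = 0.0032). From imatinib to the combination 5 rose and 4 fell, beside 22.6% and 20.5% of all genes, and CDKN1C fell by 2.52 (adjusted p = 7.81e-06).

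Most targets of MondoA and MLX rose with imatinib. Of 7 such genes 6 rose and 1 fell, beside 26.3% and 27.5% of all genes, with a median of 0.85. From imatinib to the combination 5 fell and 1 rose, beside 20.5% and 22.6% of all genes, with a median of -0.44. TXNIP, which restrains glucose uptake, averaged 42.4 ± 2.4 TPM in control, 18.5 ± 1.26 under MLN4924, 159 ± 25.2 under imatinib and 31.6 ± 6.55 under both. It rose by 1.87 with imatinib (adjusted p = 4.81e-06) and fell by 1.16 with MLN4924 alone (adjusted p = 0.000547). Its paralog ARRDC4 rose from 3.29 ± 0.734 to 8.95 ± 0.924 TPM with imatinib (1.22, adjusted p = 4.98e-05) and stood at 3.41 ± 0.44 TPM with both drugs. ARRDC2 rose by 0.85 (adjusted p = 2.38e-05), and PFKFB3, a glycolytic regulator, fell by 1.16 (adjusted p = 3.49e-05). The interaction was negative in 5 and positive in 1, beside 7.35% and 9.06% of all genes.

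**Figure D4:**
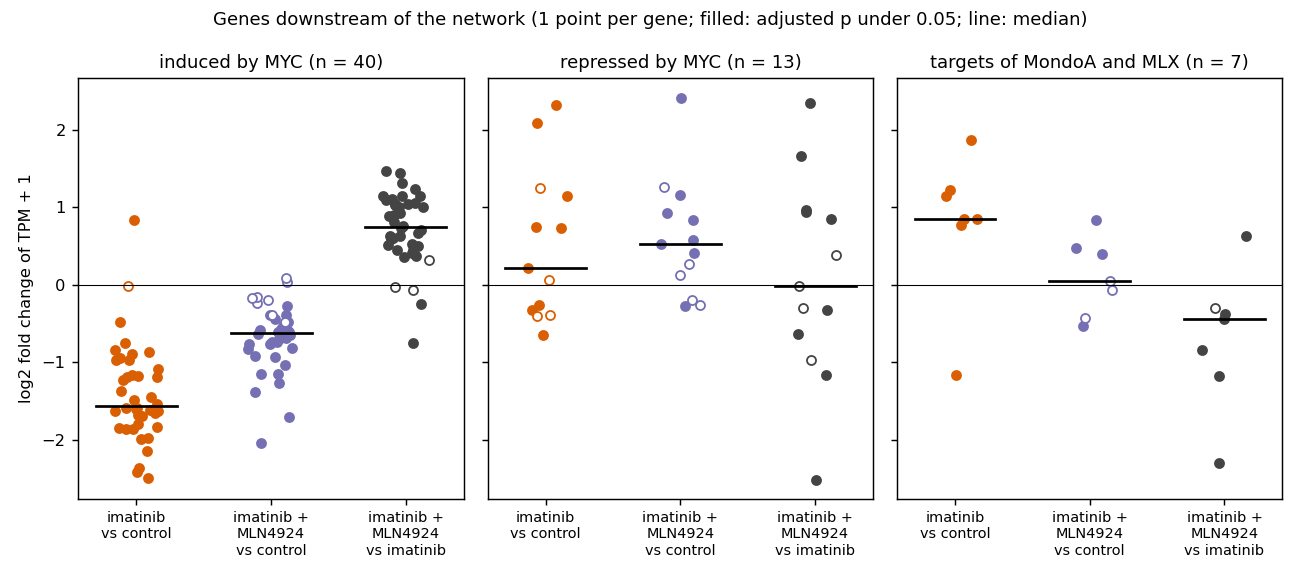
Differences on the log2(TPM + 1) scale (vertical axis) for each measured gene of the lists induced by MYC (40), repressed by MYC (13) and targeted by MondoA and MLX (7), filled where the adjusted p passed 0.05, with a line at the median. The induced genes center on -1.56 with imatinib and on 0.75 from imatinib to the combination.

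The partners of MLX changed as well. MLXIPL, which encodes ChREBP, rose from 2.98 ± 0.425 to 23.8 ± 5.09 TPM with imatinib (2.63, SE 0.184, adjusted p = 2.74e-06) and was at 4.76 ± 1.32 TPM with both drugs, with an interaction of -2.03 (adjusted p = 0.00219). MLXIP, which encodes MondoA, rose from 32.7 ± 2.2 to 51.4 ± 6.31 TPM (0.63, adjusted p = 0.000211) and fell by 0.62 from imatinib to the combination (adjusted p = 0.000505). In the list of 11 other bHLH-zip partners and paralogs, 10 were tested, of which 2 rose and 4 fell with imatinib, beside 26.3% and 27.5% of all genes. TFAP4, a MYC-induced transcription factor, fell by 0.87 (adjusted p = 0.000667). MYCN, the neuronal paralog of MYC, did not pass the filter, and MYCL, the other paralog, gave -0.17 (adjusted p = 0.433).

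Among 16 coactivators of MYC, 9 fell and 1 rose with imatinib, beside 27.5% and 26.3% of all genes. The paired helicases RUVBL1 and RUVBL2 fell by 1.51 (113 ± 2.34 to 39.9 ± 11 TPM, adjusted p = 1.35e-05) and 1.30 (329 ± 0.899 to 134 ± 20.6 TPM, adjusted p = 3.52e-06). TRRAP, the scaffold that MYC binds, gave -0.05 (adjusted p = 0.646), and the acetyltransferase CREBBP rose by 0.46 (adjusted p = 0.00309). No coactivator passed with MLN4924 alone, and from imatinib to the combination 6 rose and 1 fell, beside 22.6% and 20.5% of all genes. Of 16 SIN3 and NCOR corepressors, with which the MXD proteins act, 5 fell and 1 rose with imatinib, a share of falls near the 27.5% of all genes. SIN3A gave -0.10 (adjusted p = 0.362) and SIN3B fell by 0.32 (adjusted p = 0.0399). Of 12 members of the MGA complex, 6 fell and 1 rose, beside the same 27.5% and 26.3%, with PCGF6 falling by 0.84 (adjusted p = 0.000216) and RING1 rising by 0.40 (adjusted p = 0.00114). The lists of coactivators, corepressors and the MGA complex share WDR5, HDAC1 and HDAC2. HBP1 is on both the MYC-repressed list and that of MondoA and MLX targets. TFAP4 is on both the MYC-induced list and that of other bHLH-zip partners and paralogs.

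Of 23 genes that act on the stability of the MYC protein, many of them parts of the cullin-RING ligases that need NEDD8, 10 fell and 1 rose with imatinib, beside 27.5% and 26.3% of all genes. With MLN4924 3 rose and 2 fell, beside 7.36% and 7.11% of all genes. FBXW7, the ligase subunit that marks MYC for destruction, rose from 9.85 ± 1.18 to 13.5 ± 1.43 TPM with MLN4924 (0.42, adjusted p = 0.0402). AURKA, a mitotic kinase that shields MYC proteins, rose from 71.5 ± 2.28 to 112 ± 8.99 TPM (0.64, adjusted p = 0.000348). With imatinib the largest fall was that of USP36, a nucleolar deubiquitinase (-1.09, adjusted p = 3.87e-05), followed by the chaperone-linked ligase STUB1 (-1.01, adjusted p = 1.91e-06), and BTRC, a ligase subunit, rose by 0.73 (adjusted p = 2.81e-05). These are transcript levels and say nothing of ligase activity.

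The long noncoding RNA PVT1, transcribed beside MYC, was not called with imatinib. It was at 89.8 ± 8.27 TPM in control and 94.6 ± 11.2 with imatinib (0.07, adjusted p = 0.631), and fell to 62.8 ± 9.32 TPM with MLN4924 (-0.51, adjusted p = 0.0143). CYRIB, another neighbour, fell by 0.41 with imatinib (adjusted p = 0.00128). Of the 8 names listed as neighbours these 2 passed the filter.

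The protein-coding genes closest to MYC in course were found by the root mean square difference of log2(TPM + 1), centred per gene, over the 12 libraries, among 11734 genes. The 5 closest were SCFD2 (0.161), ODC1 (0.161), FAM216A (0.169), ZPR1 (0.17) and FJX1 (0.17), where the median gene was at 0.698. FAM216A, for example, averaged 46.7, 31.9, 16.2 and 19.8 TPM in control, MLN4924, imatinib and both drugs. ODC1 is also on the list of MYC-induced genes. For MXD3 the 3 closest were BMF (0.187), a BH3-only cell death gene, EGFL8 (0.245) and C21orf58 (0.248), with a median of 1.03. For MXD4 they were ADAM8 (0.164), NATD1 (0.166) and DHRS12 (0.173), with a median of 0.81. MNT was closest to HDAC10 (0.133), CCDC69 (0.142) and GATA1 (0.146), MAX to ALDOC (0.0715), SLC4A2 (0.0818) and RDH13 (0.0861), and MLX to UNC13D (0.0736), ERGIC1 (0.0784) and VAPA (0.08). The group means of MXD1, MXI1 and MGA spanned less than 0.5 on the log2 scale and were not matched.

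**Figure D5:**
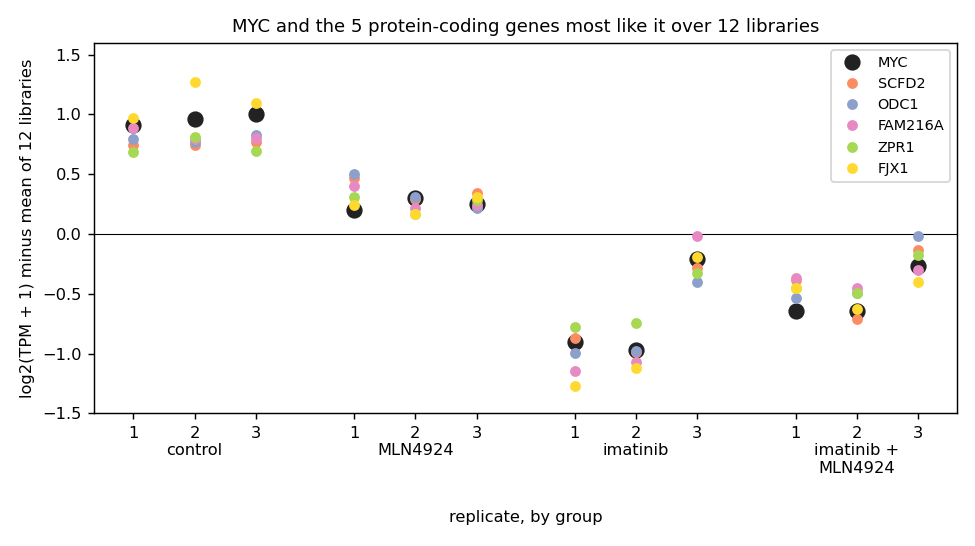
Log2(TPM + 1) minus the gene's mean over the 12 libraries (vertical axis) for MYC and the 5 closest protein-coding genes, by library. MYC runs from 0.92 to 1.004 in control down to -0.97 in imatinib replicate 2, and all 6 genes are higher in imatinib replicate 3 than in replicates 1 and 2. The 5 genes were picked for closeness to MYC over these same 12 libraries, so a shared shift is favored by the choice.

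RefSeq windows were found for 8 of the 9 genes. CACGTG was in those of 3 (MXD4, MNT and MLX), beside 8.77% of 27305 genes with a window. Of the listed genes with a window, it was in 22 of 32 induced by MYC, 3 of 13 repressed by MYC and 3 of 6 targets of MondoA and MLX. The FOXO motif GTAAACA, searched on both strands, was in 2 windows of MXI1 and in no window of the other members, beside 4.19% of genes. Stretches around these matches are shown with the motif in capitals (the first of MXI1 holds it on the opposite strand), for MXI1 at chr10:110210053-110210113 and chr10:110225967-110226027 on the plus strand, MNT at chr17:2401221-2401280 on the minus strand and MLX at chr17:42567023-42567082 on the plus strand. The MXI1 matches begin 151 and 2 bases before their start sites, that of MNT 193 and that of MLX 50 bases before. Of the members with a match, MXD4 and MXI1 rose and MLX fell with imatinib, and MNT fell with MLN4924. Whether the motifs had a part in these changes was not tested.
MXI1 window 2: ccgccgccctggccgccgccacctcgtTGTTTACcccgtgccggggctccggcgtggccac
MXI1 window 3: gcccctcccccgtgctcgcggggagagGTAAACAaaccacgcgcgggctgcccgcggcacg
MNT: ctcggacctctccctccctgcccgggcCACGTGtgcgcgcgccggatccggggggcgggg
MLX: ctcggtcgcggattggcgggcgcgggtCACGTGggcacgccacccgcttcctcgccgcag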

How the data were processed

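RNA was sequenced from 12 libraries of K562 cells, 3 in each of 4 groups set by the sample titles. Before deposit the authors used fastp for trimming, HISAT2 for alignment to hg38 and StringTie for quantification, and the deposited values are TPM per gene to 2 decimals, already scaled to the library total. The submitters' processing notes also name featureCounts and GRCh38, and the annotation release is not given in the sources used here. Because TPM is a share of the library, a rise of abundant genes lowers the rest. Assembled loci (691 lines) were left out.

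R 4.3.3 with limma 3.58.1 (trend, empirical Bayes) was fitted to log2(TPM + 1) of all 12 libraries, 1 coefficient per group, for the 15478 Ensembl genes that reached 1 TPM or more in 3 or more libraries, and called at an adjusted p under 0.05 (Benjamini-Hochberg). The count test named in the study's methods needs counts and was not used. The fit was tested on simulated data. Python 3.11.15 with pandas 2.3.3, numpy 2.4.6 and matplotlib 3.10.9 did the rest, and promoters came from RefSeq (GRCh38.p14).

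The members and gene lists were chosen with earlier results of these data known. Named with values were all 9 members and, per list, the first 3 measured genes and the largest rise and fall past the threshold in imatinib or MLN4924 against control or the combination against imatinib, from which those described were taken. The closest genes were 5 for MYC and 3 for other members whose group means span at least 0.5. TERT, CCND2, MYCN and MLXIPL with MLXIP as partners of MLX, and the shared genes of lists, were named for counts or roles. Alternatives were other pseudocounts, filters and scalings, a replicate block, limma without trend, only the libraries compared and each library left out. Leaving out replicate 3 of all groups was chosen after seeing the data.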

Additional observations from a re-analysis of the deposited data

Results flagged for a closer look

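The effect of imatinib with MLN4924 differed from its effect without by limma's interaction term for 4 of the 9 genes. Of these 1 was positive and 3 negative, beside 9.06% and 7.35% of all genes. On the log2(TPM + 1) scale the interaction was 0.88 for MYC (SE 0.239, adjusted p = 0.0309), where imatinib lowered the gene by less when MLN4924 was present. MLN4924 alone had already lowered MYC by 0.71 (adjusted p = 0.0168). The combination differed from imatinib alone by 0.18 for MYC (adjusted p = 0.428). The interaction was -0.55 for MXD1 (SE 0.15, adjusted p = 0.0314), -1.08 for MXD3 (SE 0.319, adjusted p = 0.0416) and -1.34 for MXD4 (SE 0.264, adjusted p = 0.0103). For MYC, MXD1 and MXD3 the call was lost without some single libraries, and for MXD4 without none of the 12.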

How the results depend on the processing

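No member changed direction past the threshold under any setting, and member differences kept their side of the threshold in 548 of 585 refits with other settings and in 576 of 648 with 1 library left out. With no filter on low values 61541 genes were tested instead of 15478, and the number of the 9 called was 6 in place of 8 for imatinib against control (MXI1 and MGA lost), 0 in place of 2 for MLN4924 against control, 2 in place of 5 for imatinib + MLN4924 against control, 1 in place of 2 for imatinib + MLN4924 against imatinib, 0 in place of 2 for imatinib + MLN4924 against MLN4924 and 0 in place of 4 for the interaction. Without replicate 3 of all groups, MLN4924 against control called 1. With each library left out in turn the number called ran from 6 to 8 for imatinib against control, 0 to 3 for MLN4924 against control, 2 to 6, 1 to 4 and 1 to 3 for the combination against control, imatinib and MLN4924, and 1 to 5 for the interaction. The labels give no batch for the replicate number, and same-numbered libraries did not pair throughout (correlations of same-numbered libraries from -0.06 to 0.19 over 18 pairs, 1 above 0.1, that of imatinib and combination replicates 3 at 0.19, and a library closest to its own number in 6 of 18 comparisons), so whether those replicates 3 share a source was not settled, and the replicate block called 8, 3, 6, 2, 3 and 4 of the 9 in these 6 comparisons, adding MXD1 with MLN4924 (adjusted p = 0.0383), MXD4 in the combination against control (0.023) and MXI1 in the combination against MLN4924 (0.0242). Leaving out the 10 most abundant genes moved the median of all genes to 0.11 for imatinib against control, and moved the share of interaction calls that were positive from 55.2% to 43%. Limma without trend lost MXD3 in the interaction (adjusted p = 0.0564) and MLX in the combination against control (0.0632). The fall of the MYC to antagonist log2 ratio from control to imatinib was -2.88, with a range of -3.22 to -2.68 with 1 library left out, and -2.13, -4.11, -3.62, -2.07 and -1.70 against MXD1, MXD3, MXD4, MXI1 or MNT alone. From control to MLN4924 it was -0.78 (-0.84 to -0.70), -0.96 without MNT, and -1.08, -1.08 and -0.0371 against MXD1, MXD3 or MNT alone. From imatinib to the combination it was 0.75 (0.53 to 1.10), 1.54 against MXD4 and 0.0605 against MXI1 alone, and from MLN4924 to the combination -1.35 (-1.57 to -1.24), -0.65 against MXD1 and -2.09 against MXD3 alone. The cause of these changes was not tested. Depth is unknown, so the precision of low levels such as those of MXD4 cannot be given.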
